A study of Mus musculus with 18 samples.

Results

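The genes described here are those whose symbol in the deposited tables marks them as a voltage-gated sodium channel subunit (Scn followed by a digit), a voltage-gated calcium channel subunit (Cacna, Cacnb or Cacng), a hyperpolarisation-activated HCN channel (Hcn followed by a digit) or a TRP cation channel of the C, M or V branch. The pattern matched 49 of 13784 genes in each of 3 tables. Of 65 genes of these families listed by name, 48 had a row and 17 had no row, among them Trpv4 and every TRPV gene other than Trpv2. The remaining match, Trpc4ap, encodes an adaptor protein that binds TRPC4 and is not itself a channel. The pattern itself matches symbols and reads no measured value.

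The samples are whole-cortex RNA of 18 mice. Saline went to 4 controls and 4 conditional knockouts (cKO), and 5 animals of each genotype received lipopolysaccharide (LPS), the bacterial cell wall component used to set off systemic inflammation. The cKO mice lacked Chd8, a chromatin remodeller, in astrocytes. LPS was injected into the abdomen at 5 mg/kg in mice aged 4 to 6 months, and brains were taken 72 hours later. The titles give 3 days for every group. Every title also carries the word saline, including those of the 10 samples labelled LPS, so the groups rest on the genotype label, which names both genotype and injection. The driver of the knockout, the exact genotype of the controls and the sex of the mice are not given in the sources used here. The study asked how gene expression changes when astrocytes lose Chd8, at baseline and during neuroinflammation.

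Voltage-gated sodium channels carry the rising phase of the action potential; the alpha subunit forms the pore and the beta subunits adjust gating and surface expression. Voltage-gated calcium channels couple depolarisation to transmitter release, excitability and gene expression, and are built from a pore-forming alpha1 subunit with alpha2delta and beta subunits, while most proteins of the gamma family act as TARPs, the auxiliary subunits of AMPA glutamate receptors. HCN channels open on hyperpolarisation and damp dendritic integration, and TRP channels pass cations in response to lipid messengers, calcium, temperature or redox signals. In cortex most of these genes are known mainly from neurons, with some members also in glia and vessels.

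Values per library were not used here, so no level is given per mouse. The data are the authors' own comparisons, which list for each gene the log2 fold change, its mean level as log2 CPM (reads scaled to a fixed library total), an F statistic, a p-value and a false discovery rate (FDR). Standard errors were derived from the fold change and F, and a gene was called changed at an FDR below 0.05 over all genes of its table. Group levels in log2 CPM were back-calculated from the fold change, the mean level and the group sizes within each table of LPS against saline. Nothing in the labels names a batch. Chd8 itself, measured over all cells of the cortex, differed by 0.02 ± 0.05 (derived SE) between cKO and control mice after LPS in the authors' deposited table (FDR = 0.901). The Y-linked gene Ddx3y stood at -7.2 log2 CPM in the saline controls, 3.7 in the LPS controls, 5.9 in the saline cKO group and 5.7 in the LPS cKO group. Y-linked expression thus differed between the groups, and the share of male mice may have differed with it. In controls Ddx3y differed by 10.87 ± 2.63 between LPS and saline (FDR = 0.0351) in the authors' deposited table. Its estimate after saline, cKO minus control, was 12.4. Its response to LPS differed by -11.03 ± 3.78 (SE) between the genotypes, cKO minus controls. After LPS, cKO minus control, Ddx3y was at 1.42 ± 1.70 (FDR = 0.764) in the authors' deposited table. LPS in controls, genotype after saline and the difference of the LPS responses therefore went together with Y-linked expression. The values used here cannot separate them. The part of Y-linked expression in the values below was not tested. All 9 excitatory neuron markers of cortex were measured, as were all 9 markers of striatal projection neurons, the latter at a summed 420 to 606 CPM. Of the blood leukocyte markers 0 of 6 had a row.

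Promoter sequences show how differently built the start regions are of genes that were lower after LPS. Entries for 36 of the 49 genes, and for 6 of the 9 genes called in either table of LPS, were found in the RefSeq promoter table of build GRCm38.p6; the deposited values come from GRCm39. The 250 bases before the listed start are printed below, 5′ to 3′ on the strand of the gene, for one gene called lower in both genotypes (Scn1a), one in controls (Hcn2) and one in cKO mice (Cacna2d1). Capitals mark matches to any of the motifs searched on both strands.
Scn1a, chr2:66440838-66441087, minus strand: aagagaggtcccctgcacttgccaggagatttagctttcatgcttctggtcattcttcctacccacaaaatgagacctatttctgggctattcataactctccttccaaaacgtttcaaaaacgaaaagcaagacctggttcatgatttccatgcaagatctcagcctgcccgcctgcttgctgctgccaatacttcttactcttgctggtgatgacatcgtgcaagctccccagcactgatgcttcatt
Hcn2, chr10:79716384-79716633, plus strand: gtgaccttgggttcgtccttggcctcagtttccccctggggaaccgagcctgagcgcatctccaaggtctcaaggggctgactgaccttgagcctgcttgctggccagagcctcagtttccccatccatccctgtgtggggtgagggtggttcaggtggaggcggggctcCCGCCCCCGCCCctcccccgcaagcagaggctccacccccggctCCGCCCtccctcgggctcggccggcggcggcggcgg
Cacna2d1, chr5:15934441-15934690, plus strand: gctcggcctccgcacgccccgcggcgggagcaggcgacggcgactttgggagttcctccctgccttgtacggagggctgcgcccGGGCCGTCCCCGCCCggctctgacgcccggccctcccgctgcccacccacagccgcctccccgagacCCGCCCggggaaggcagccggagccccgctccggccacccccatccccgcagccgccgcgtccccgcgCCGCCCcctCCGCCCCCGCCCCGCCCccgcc
The motifs were the GC box GGGCGG, the NF-kB motif, the STAT motif TTCNNNGAA, the AP-1 motif TGANTCA, the cyclic AMP response element TGACGTCA, the TATA box TATAAA and the left part of the RE1 element, TTCAGCACC. The Scn1a window had a GC content of 46.8% and held none of these letters. That of Hcn2 was at 70.4% GC with 3 GC boxes. The Cacna2d1 window was at 82.4% GC with 6 GC boxes and 1 match to the NF-kB motif, which shares a base with a GC box. Over all 32851 promoter windows of this length, 32.7% held a GC box and 17.6% the NF-kB motif, against 36.0% and 32.0% of the 50 windows of the genes described here. Those 50 windows belong to 36 genes, so some genes count more than once. The STAT motif was in 7.02% of all windows and 5 of these 50, the AP-1 motif in 6.75% and 1 of 50, and the TATA box in 12.4% and 4 of 50. The cyclic AMP response element was in 1.55% of all windows and the RE1 part in 0.301%, and both were in 0 of the 50. None of these shares was tested. A match of letters is a description, and the start used in these samples was not measured.

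The response of the channel genes to LPS was small, with a few members that moved and most that did not pass the test. In the authors' deposited table for controls, 2 of 49 channel genes rose and 2 fell, or 8.16%, against 9.76% of all 13784 genes (6.46% higher and 3.31% lower). Cacng3 and Cacng4 rose, and Scn1a and Hcn2 fell. In the authors' deposited table for cKO mice, 3 rose (among them Cacng3 and Cacng4) and 5 fell (among them Scn1a, Cacna2d1, Cacna2d3 and Trpc1), or 16.3%, against 19.5% of all genes (10.9% higher and 8.52% lower). Both shares lie near those of all genes, so the counts are no result about channels as a group. With the trend of the fold change on GC content and transcript length removed, 1 rose and 3 fell in controls, and 3 rose and 7 fell in cKO mice. These counts are given without the share of all genes called with the trend removed, so they are no result about channels either. Below 0 were 30 of 49 members in controls (median -0.05) and 29 of 49 in cKO mice (median -0.02), beside 6960 and 6924 of all 13784 genes with medians near 0. With that trend removed, 40 of 49 and 35 of 49 lay below 0 (medians -0.12 and -0.10), and 8160 and 7837 of the 13730 genes with both values (medians -0.05 and -0.04). The absolute change was under 0.3 on the log2 scale in both genotypes for 41 of the 49 genes.

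**Figure D1:**
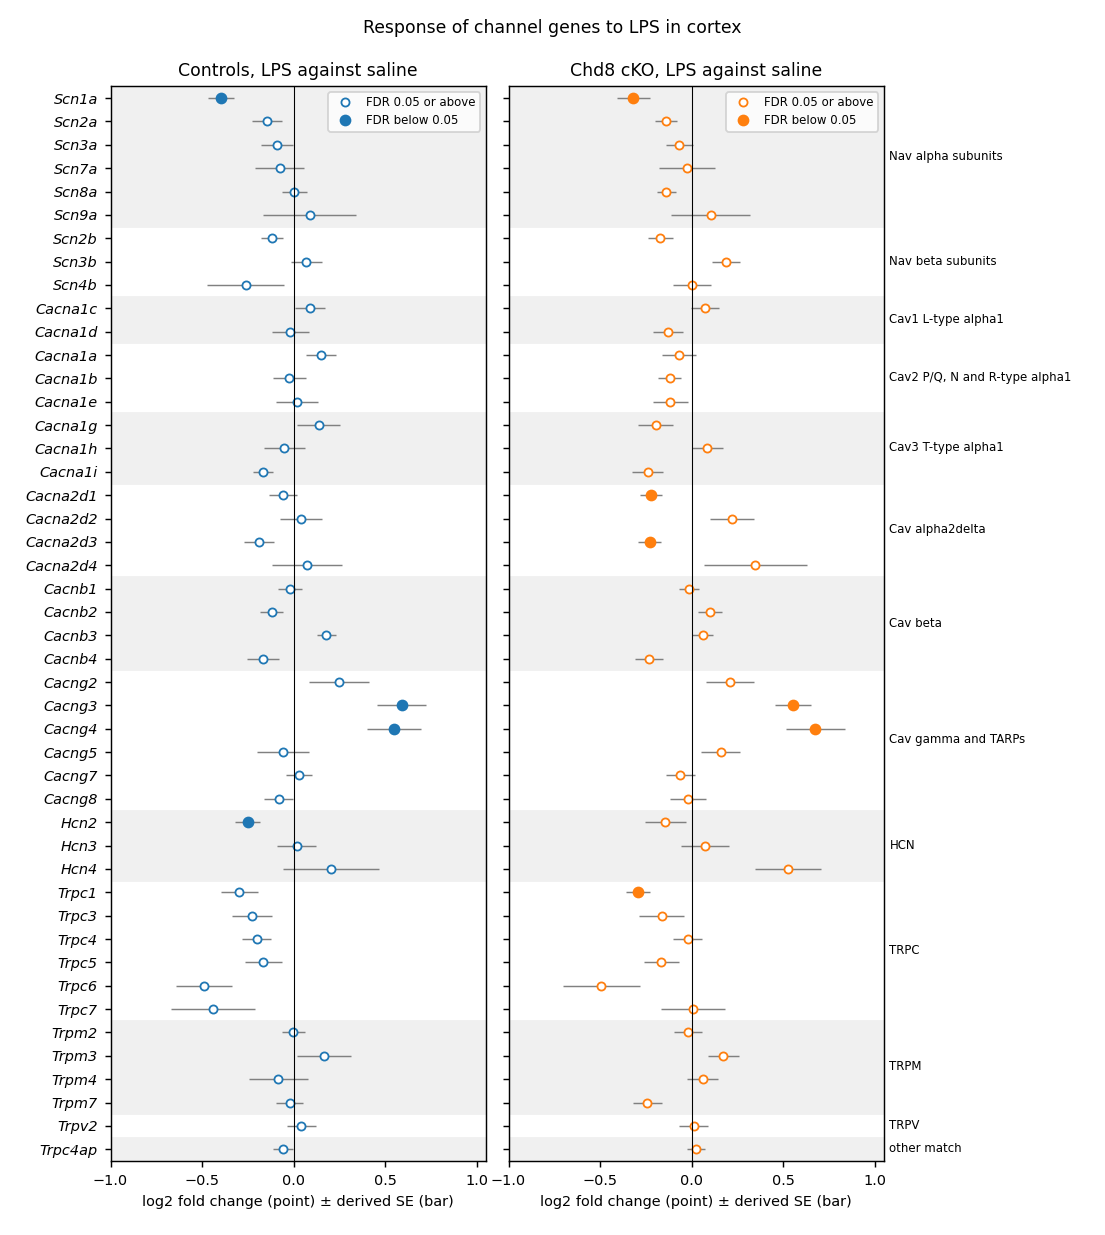
Log2 fold change of LPS against saline for 46 of the 49 genes (rows, grouped by subfamily) in controls (left) and Chd8 cKO mice (right), from the authors' deposited tables; bars are derived standard errors and filled points have an FDR below 0.05. Cacng3 and Cacng4 have the highest values in both panels, Scn1a is filled and below 0 in both, and all 6 TRPC rows lie below 0 in controls.

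Among the sodium channel alpha subunits, Scn1a was lower after LPS in both genotypes. Scn1a encodes Nav1.1, the sodium channel of fast-spiking interneurons and axon initial segments. Controls went from 8.49 log2 CPM after saline to 8.09 after LPS, and cKO mice from 8.30 to 7.98, so each genotype was lower after LPS. It fell by 24.1% in controls in the authors' deposited table (log2 fold change -0.40 ± 0.07 derived SE, FDR = 0.0117). In cKO mice it fell by 19.8% in the authors' deposited table (-0.32 ± 0.09, FDR = 0.0354), which no longer passed once the GC and length trend was taken out (-0.28, adjusted p = 0.0588). In whole tissue, fewer cells of a type and less RNA per cell cannot be told apart. Of 8 interneuron markers, 0 were called in controls, with 4 above 0 and 4 below (median -0.05), and in cKO mice 2 rose and 0 fell (median 0.13). The risers in cKO mice were the GABA synthesis and vesicle genes Gad2 (0.25 ± 0.07, FDR = 0.0355) and Slc32a1 (0.52 ± 0.10, FDR = 0.0125) in the authors' deposited table. Pvalb, the parvalbumin gene of fast-spiking interneurons, was at -0.31 ± 0.13 in controls (FDR = 0.138) and -0.25 ± 0.20 in cKO mice (FDR = 0.413) in the authors' deposited tables. The summed level of the 8 markers ranged from 814 to 877 CPM over the 4 groups, and their part in the Scn1a values was not tested.

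The genes of the other main cortical sodium channels did not pass the test in either genotype. Scn2a, which encodes Nav1.2 of excitatory axons, stood at -0.15 ± 0.08 in controls (FDR = 0.262) and -0.14 ± 0.06 in cKO mice (FDR = 0.125) in the authors' deposited tables. Scn8a (Nav1.6, the channel of the mature axon initial segment and nodes) was at 0.00 ± 0.07 (FDR = 0.978) and -0.14 ± 0.05 (FDR = 0.0819). Scn3a (Nav1.3, most used in developing brain) was at -0.09 ± 0.09 (FDR = 0.534) and -0.07 ± 0.07 (FDR = 0.539) in the authors' deposited tables. Per kilobase of the longest annotated transcript, the mean levels were 6.14 log2 CPM for Scn2a, 5.24 for Scn8a, 5.05 for Scn1a and 3.05 for Scn3a, with Scn7a at 0.26 and Scn9a at -1.72. No spread between mice is available for these levels, so neighbours in this order cannot be tested.

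Scn3a, Scn2a, Scn1a, Scn9a and Scn7a lie in this order in a cluster on chromosome 2, with 3 other protein-coding genes between Scn2a and Scn1a and none between the other neighbours. Scn1a was the member of the cluster with a call. Its neighbours Scn9a and Scn2a stood at 0.09 ± 0.25 and -0.15 ± 0.08 in controls in the authors' deposited table. The error of Scn9a is larger than its value, so its sign is not determined. Whether the response to LPS differed between the members of the cluster was not tested.

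Of the 4 beta subunit genes none was called. Scn2b, a beta subunit linked to the alpha subunit by a disulfide bond, was at -0.12 ± 0.06 in controls (FDR = 0.217) and -0.17 ± 0.07 in cKO mice (FDR = 0.0966) in the authors' deposited tables. Scn4b, strongly expressed in striatal neurons and fast-firing cells, was at -0.26 ± 0.21 (FDR = 0.445) and -0.00 ± 0.10 (FDR = 0.999). Scn3b was at 0.07 ± 0.09 (FDR = 0.638) and 0.19 ± 0.07 (FDR = 0.102) in the authors' deposited tables.

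Of the genes that work with sodium channels, 11 were listed, comprising the FGF homologous factors, ankyrins, spectrin and adhesion molecules of the axon initial segment and the ubiquitin ligase Nedd4l; all 11 had a row. In controls 1 rose and 0 fell, with a median of -0.03. The riser was Nfasc, the gene of the node and initial segment protein neurofascin (0.37 ± 0.09, FDR = 0.0374 in the authors' deposited table). In cKO mice 0 rose and 2 fell, namely the adhesion molecule genes Nrcam (-0.21 ± 0.05, FDR = 0.0293) and Cntn1 (-0.22 ± 0.07, FDR = 0.0414) in the authors' deposited table; the median was -0.04. In controls Nrcam was at -0.07 ± 0.06 (FDR = 0.485) and Cntn1 at -0.22 ± 0.07 (FDR = 0.0625) in the authors' deposited table. Nfasc stood at 0.07 ± 0.11 (FDR = 0.651) in cKO mice in the authors' deposited table, and the difference between its responses did not pass the test (-0.30 ± 0.16, adjusted p = 0.798).

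None of the 8 measured pore-forming calcium channel genes was called in either genotype. The L-type gene Cacna1c (Cav1.2, which couples activity to transcription) was at 0.09 ± 0.08 in controls (FDR = 0.497) and 0.07 ± 0.08 in cKO mice (FDR = 0.512) in the authors' deposited tables. Cacna1a (Cav2.1, the P/Q-type channel of transmitter release) was at 0.15 ± 0.08 (FDR = 0.267) and -0.07 ± 0.09 (FDR = 0.633). Cacna1e, the R-type gene, was at 0.02 ± 0.11 (FDR = 0.934) and -0.12 ± 0.10 (FDR = 0.416) in the authors' deposited tables. All 3 genes of the Cav2 group lay below 0 in cKO mice, between -0.12 and -0.07, and 2 of 3 lay above 0 in controls.

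The T-type genes, which serve low-threshold firing, included the lowest values among the calcium channel pores. Cacna1i was at -0.17 ± 0.05 in controls (FDR = 0.0756) and -0.24 ± 0.08 in cKO mice (FDR = 0.0733) in the authors' deposited tables. With the GC and length trend removed it passed in both, at -0.32 (adjusted p = 0.00899) and -0.36 (adjusted p = 0.0211). Cacna1g was at 0.14 ± 0.12 (FDR = 0.480) and -0.20 ± 0.09 (FDR = 0.168) in the authors' deposited tables, and passed with that trend removed in cKO mice (-0.33, adjusted p = 0.0424).

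Both alpha2delta genes with the highest levels, Cacna2d1 and Cacna2d3, fell in cKO mice. These subunits bring calcium channels to the membrane, and the protein of Cacna2d1 is the target of gabapentin. Cacna2d1 went from 8.36 log2 CPM in cKO saline to 8.14 in cKO LPS and fell by 14.3% (-0.22 ± 0.06, FDR = 0.0312) in the authors' deposited table. It did not pass without the GC and length trend (-0.13, adjusted p = 0.139). Cacna2d3 went from 6.86 to 6.63 and fell by 14.7% (-0.23 ± 0.06, FDR = 0.0289) in the authors' deposited table. In controls the values were -0.06 ± 0.07 (FDR = 0.648) for Cacna2d1 and -0.19 ± 0.08 (FDR = 0.165) for Cacna2d3. The responses of the genotypes did not pass the test of their difference, at -0.16 ± 0.11 (adjusted p = 0.838) and -0.04 ± 0.12 (adjusted p = 0.973). Cacna2d2 and Cacna2d4 lay above 0 in both genotypes without a call, and Cacna2d4, at levels between 0.67 and 1.11 log2 CPM, was at 0.07 ± 0.19 (FDR = 0.832) and 0.35 ± 0.28 (FDR = 0.401) in the authors' deposited tables.

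The beta subunit genes, whose proteins bind alpha1 subunits in the cytoplasm and control their trafficking, held no call. Cacnb4 was at -0.17 ± 0.09 in controls (FDR = 0.239) and -0.23 ± 0.08 in cKO mice (FDR = 0.0622) in the authors' deposited tables. Cacnb2 was at -0.12 ± 0.06 (FDR = 0.239) and 0.10 ± 0.07 (FDR = 0.297), on opposite sides of 0. With the GC and length trend removed it passed in cKO mice (0.22, adjusted p = 0.0470).

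Cacng3 and Cacng4 had the highest fold changes of all 49 genes in both genotypes. Both encode TARPs, which traffic AMPA receptors to the synapse and slow their gating; Cacng4 is also known from glia and oligodendrocyte precursors. Cacng3 stood at 5.41 log2 CPM in control saline and 6.00 in control LPS, and at 5.35 and 5.90 in the cKO groups. It rose by 50.6% in controls (0.59 ± 0.13, FDR = 0.0292) and by 46.7% in cKO mice (0.55 ± 0.10, FDR = 0.00924) in the authors' deposited tables. Of the 3 genes called in both genotypes, Cacng3 kept both calls without the GC and length trend, at 0.49 and 0.43.

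Cacng4 stood at 3.37 log2 CPM in control saline and 3.92 in control LPS, and at 3.36 and 4.03 in the cKO groups. It rose by 46.3% in controls (0.55 ± 0.15, FDR = 0.0470) and by 59.6% in cKO mice (0.67 ± 0.16, FDR = 0.0214) in the authors' deposited tables. Without the GC and length trend Cacng4 did not pass in controls (0.44, adjusted p = 0.0811). Of the 5 oligodendrocyte precursor markers 0 were called in either genotype, and their summed level ranged from 131 to 141 CPM over the 4 groups, with the lowest sum in the cKO LPS group. Of 6 astrocyte markers 1 rose and 1 fell in controls, and 0 rose and 3 fell in cKO mice, with a summed level from 3171 to 3772 CPM. Gfap was at 1.35 ± 0.12 in controls (FDR = 0.000286) and 1.06 ± 0.34 in cKO mice (FDR = 0.0548), while Aqp4 fell in both (-0.22 ± 0.05, FDR = 0.0385 and -0.48 ± 0.10, FDR = 0.0132), in the authors' deposited tables. The other falls in cKO mice were of the glutamate transporter genes Slc1a2 (-0.31 ± 0.08, FDR = 0.0233) and Slc1a3 (-0.45 ± 0.09, FDR = 0.0138) in the authors' deposited table. The part of these markers in the Cacng4 values was not tested.

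The remaining TARP genes held no call. Cacng2, the gene of stargazin, was at 0.25 ± 0.16 in controls (FDR = 0.350) and 0.21 ± 0.13 in cKO mice (FDR = 0.276) in the authors' deposited tables. Cacng5, Cacng7 and Cacng8 lay between -0.08 and 0.16. Cacng4 and Cacng5 are direct neighbours on chromosome 11, and Cacng5 was at -0.06 ± 0.14 in controls in the authors' deposited table.

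Of 7 AMPA receptor and scaffold genes that TARPs serve, 1 rose and 0 fell in controls (median 0.09), and 2 rose and 1 fell in cKO mice (median -0.03). Dlg4, the PSD-95 scaffold gene, rose in both (0.33 ± 0.09, FDR = 0.0434 in controls and 0.26 ± 0.08, FDR = 0.0442 in cKO mice) in the authors' deposited tables. In cKO mice the subunit gene Gria1 rose (0.42 ± 0.10, FDR = 0.0238) while Gria4, strong in interneurons, fell (-0.42 ± 0.06, FDR = 0.00597) in the authors' deposited table. In controls they were at 0.21 ± 0.06 (FDR = 0.0721) and -0.15 ± 0.06 (FDR = 0.158) in the authors' deposited table. Excitatory neuron markers, given as measured beside these synaptic genes, held 2 rises of 9 in each genotype, in both cases Camk2a and Tbr1. Above 0 were 7 of 9 in controls (median 0.15) and 5 of 9 in cKO mice (median 0.05). The summed level of the 9 markers was 2373 and 2855 CPM in control saline and LPS, and 2389 and 2770 CPM in the cKO groups. Within these sums Camk2a alone stood at 9.78 and 10.23 log2 CPM in the control groups and at 9.81 and 10.22 in the cKO groups. The part of the excitatory neuron markers in the Cacng3 and Dlg4 values was not tested.

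**Figure D2:**
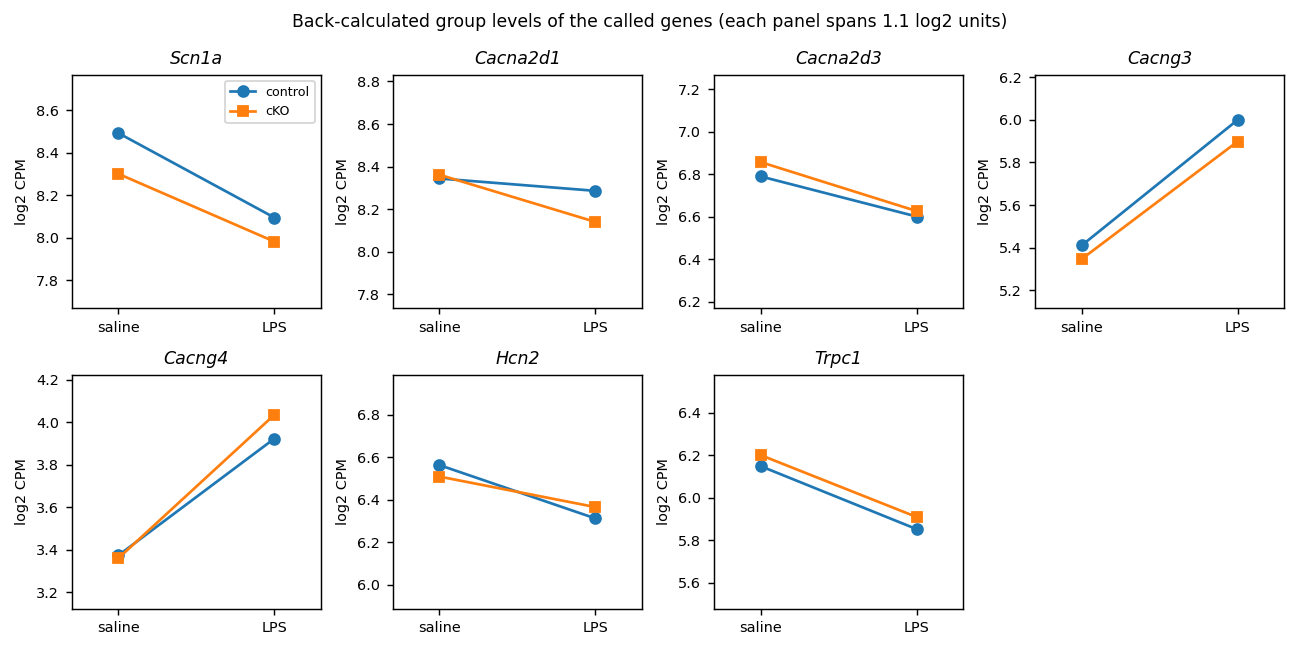
Back-calculated levels in log2 CPM of 7 genes called in at least 1 table of LPS, in saline and LPS groups of controls (circles) and cKO mice (squares); points are group estimates without an error, control and cKO points come from separate tables, and each panel spans 1.1 log2 units. The lines of Cacng3, Scn1a, Cacna2d3 and Trpc1 run close to parallel. Those of Cacna2d1 and Cacng4 are steeper in cKO mice and that of Hcn2 in controls, and none of these differences passed the test.

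Hcn2, an HCN gene of neurons in cortex and thalamus, fell in controls. Hcn2 went from 6.56 to 6.31 in controls and fell by 16.0% (-0.25 ± 0.07, FDR = 0.0485) in the authors' deposited table. Its call ended on removal of the GC and length trend (-0.19, adjusted p = 0.101) and on centring the fold changes on their median (-0.25, adjusted p = 0.0501). In cKO mice it was at -0.14 ± 0.11 (FDR = 0.378), and the responses did not pass the test of their difference (0.11 ± 0.15, adjusted p = 0.936).

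The low-level members Hcn3 and Hcn4 lay above 0 without a call. Hcn4, the pacemaker channel of the heart and thalamus, was at 0.21 ± 0.26 in controls (FDR = 0.646) and 0.53 ± 0.18 in cKO mice (FDR = 0.0678) in the authors' deposited tables. Per kilobase, the mean levels were 4.70 log2 CPM for Hcn2, 1.26 for Hcn3 and 0.13 for Hcn4.

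Pex5l encodes TRIP8b, the auxiliary subunit that sets the surface level and dendritic placement of HCN channels. It fell in both genotypes, by -0.41 ± 0.07 in controls (FDR = 0.00716) and -0.35 ± 0.06 in cKO mice (FDR = 0.00852), in the authors' deposited tables. Of the 5 measured genes of HCN and sodium leak channel partners, 0 rose and 1 fell in controls (median -0.09), and 0 rose and 2 fell in cKO mice (median -0.17). The other fall was that of Unc79, a subunit of the NALCN leak channel complex (-0.21 ± 0.06, FDR = 0.0310 in the authors' deposited table), which was at -0.04 ± 0.06 in controls (FDR = 0.697).

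Calcium channel regulators other than channel subunits comprised calmodulins, RGK proteins, STAC adaptors and active zone proteins, of which 9 of 14 had a row. In controls 0 rose and 1 fell (median -0.07), and in cKO mice 1 rose and 1 fell (median -0.12). Calm3, a calmodulin gene, fell in both (-0.22 ± 0.06, FDR = 0.0487 in controls and -0.29 ± 0.07, FDR = 0.0276 in cKO mice) in the authors' deposited tables. Stac2 rose in cKO mice (0.78 ± 0.17, FDR = 0.0157) and was at nearly the same value in controls (0.77 ± 0.23, FDR = 0.0645) in the authors' deposited tables.

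All 6 measured TRPC genes lay below 0 in controls, with a median of -0.26 and a range from -0.49 to -0.17, and none of them was called. TRPC channels are receptor-operated cation channels that open downstream of phospholipase C. In cKO mice 5 of 6 lay below 0 (median -0.16), and 1, Trpc1, fell. Trpc1 went from 6.20 to 5.91 log2 CPM in cKO mice and fell by 18.3% (-0.29 ± 0.07, FDR = 0.0175) in the authors' deposited table; the value in controls was nearly the same with a larger error (-0.30 ± 0.10, FDR = 0.0903). Trpc6, a channel opened by diacylglycerol, had the lowest fold change of the 49 genes in both genotypes. It was at -0.49 ± 0.15 in controls (FDR = 0.0725) and -0.49 ± 0.21 in cKO mice (FDR = 0.121) in the authors' deposited tables, with levels of 5.22 and 4.73 log2 CPM in the control groups and 5.20 and 4.71 in the cKO groups. Trpc7, at a low level, was at -0.44 ± 0.23 (FDR = 0.236) and 0.01 ± 0.18 (FDR = 0.981). Trpc4ap, the adaptor, was at -0.06 ± 0.05 (FDR = 0.527) and 0.02 ± 0.05 (FDR = 0.774) in the authors' deposited tables.

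The TRPM and TRPV genes held no call. Trpm3, a heat and steroid sensor expressed in neurons and choroid plexus, was at 0.17 ± 0.15 in controls (FDR = 0.50) and 0.17 ± 0.09 in cKO mice (FDR = 0.181) in the authors' deposited tables. All 3 measured choroid plexus markers lay below 0 in both genotypes without a call, with medians of -0.91 in controls and -0.40 in cKO mice. Their summed level was 114 CPM in control saline against 11.4 in control LPS, and 117 against 22.1 CPM in the cKO groups. Most of these sums was Ttr, at -4.03 ± 1.96 in controls (FDR = 0.206) and -2.83 ± 1.86 in cKO mice (FDR = 0.303) in the authors' deposited tables. Any part of choroid plexus in the Trpm3 values was not tested. Trpm7, a magnesium-permeable channel fused to a kinase, was at -0.02 ± 0.07 (FDR = 0.872) and -0.24 ± 0.08 (FDR = 0.0596). Trpm2, the ADP-ribose and oxidant sensor known from microglia and neurons, was at -0.00 ± 0.06 (FDR = 0.992) and -0.02 ± 0.07 (FDR = 0.869) in the authors' deposited tables, while 4 of 6 microglia markers rose in controls, and 3 rose and 1 fell in cKO mice. The part of microglia in the Trpm2 values was not tested. Trpv2 was at 0.04 ± 0.08 (FDR = 0.760) and 0.01 ± 0.08 (FDR = 0.935).

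Calcium channels of the endoplasmic reticulum, lysosome and store-operated entry were measured with 15 of 18 listed genes. In controls 1 rose and 0 fell (median 0.00); the riser was Orai1, the pore of store-operated entry (0.58 ± 0.16, FDR = 0.0474 in the authors' deposited table), which was at 0.38 ± 0.22 in cKO mice (FDR = 0.252). In cKO mice 2 rose and 2 fell (median -0.04). Among them the inositol trisphosphate receptor genes went opposite ways, with Itpr3 higher (0.80 ± 0.14, FDR = 0.00741) and Itpr1, the main form in neurons, lower (-0.35 ± 0.07, FDR = 0.0101), and the ryanodine receptor gene Ryr2 fell (-0.30 ± 0.06, FDR = 0.0119), in the authors' deposited table. In controls Itpr3 was at 0.20 ± 0.13 (FDR = 0.334), Itpr1 at -0.19 ± 0.09 (FDR = 0.168) and Ryr2 at -0.08 ± 0.10 (FDR = 0.657) in the authors' deposited table, each with the sign it had in cKO mice.

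**Figure D3:**
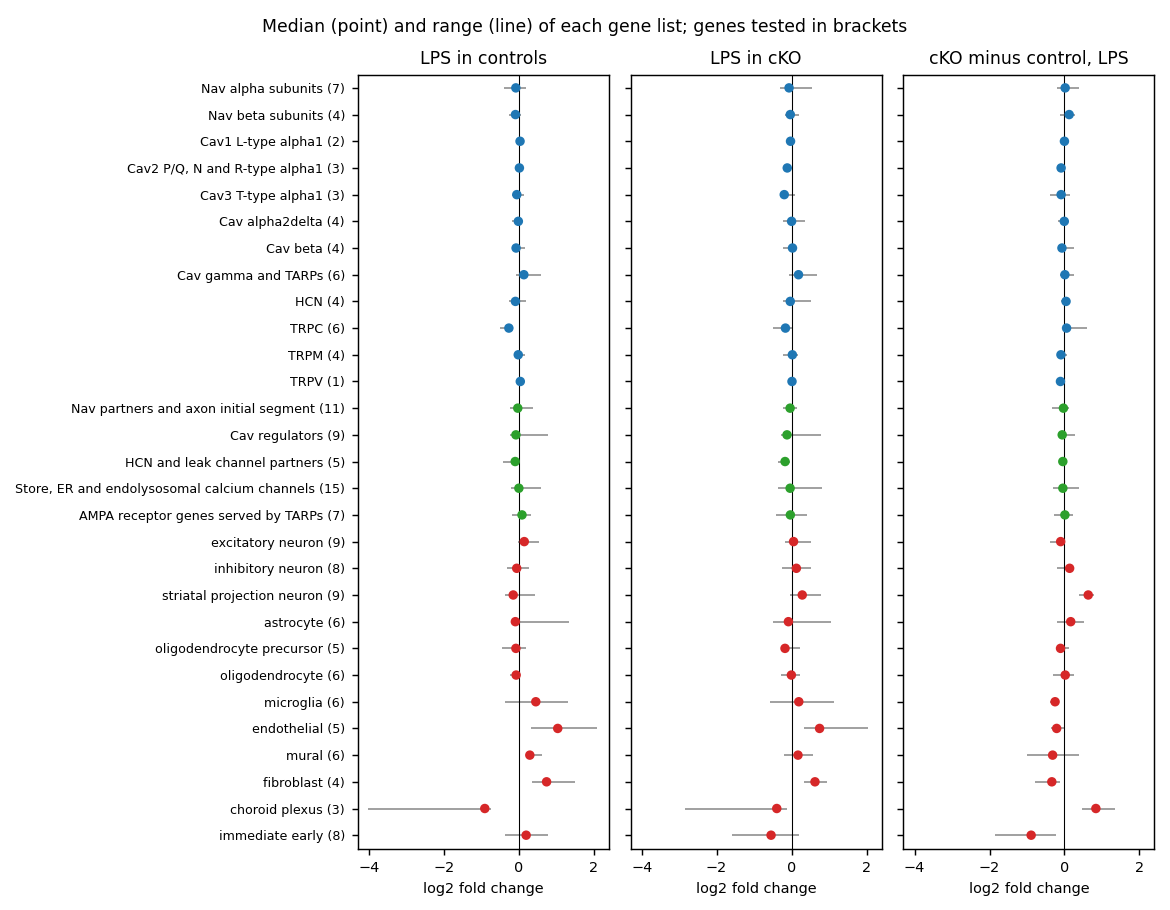
Median (point) and range (line) of the log2 fold change for the channel subfamilies (blue), the lists of partner genes (green) and the cell type and activity markers (red) in the 3 comparisons; the number of genes tested is in brackets. The channel medians lie within 0.3 of 0 on the log2 scale in every panel, while endothelial markers have a median of 1.04 after LPS in controls.

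Between cKO and control mice after LPS, none of the channel genes differed past the threshold. The authors' deposited table of genotypes held 0 calls among the 49, against 0.00725% of all genes (1 of 13784), and 5 of 49 had an unadjusted p below 0.05, or 10.2%, against 12.3% of all genes. The smallest FDR was 0.291, for Cacnb2. The median over the 49 genes was -0.04, beside 0.00 over all genes. The LPS libraries of this table also enter the comparisons with saline, so its values are not independent of theirs.

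The genes with an unadjusted p below 0.05 lay on both sides of 0. Cacnb2 was higher in cKO mice by 0.25 ± 0.07 (95% interval 0.09 to 0.41), and Scn3b, a beta subunit gene, by 0.29 ± 0.10 (0.05 to 0.52, FDR = 0.344), in the authors' deposited table. Lower were Scn8a at -0.19 ± 0.06 (95% interval -0.32 to -0.06, FDR = 0.292), Cacna1a at -0.21 ± 0.09 (-0.41 to -0.01, FDR = 0.394) and Cacna1g at -0.38 ± 0.13 (-0.68 to -0.08, FDR = 0.334). The intervals are not adjusted for the number of genes.

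For 39 of the 49 genes the 95% interval of the genotype difference lay between -0.5 and 0.5 on the log2 scale. Of the genes called after LPS, Scn1a was at -0.10 (95% interval -0.33 to 0.13), Cacng3 at -0.11 (-0.25 to 0.04) and Trpc1 at 0.06 (-0.11 to 0.23) in the authors' deposited table. Trpc7, at a low level, had a wide interval, from -0.04 to 1.25 around 0.61. A difference between genotypes in Trpc7 was not detectable with this error.

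**Figure D4:**
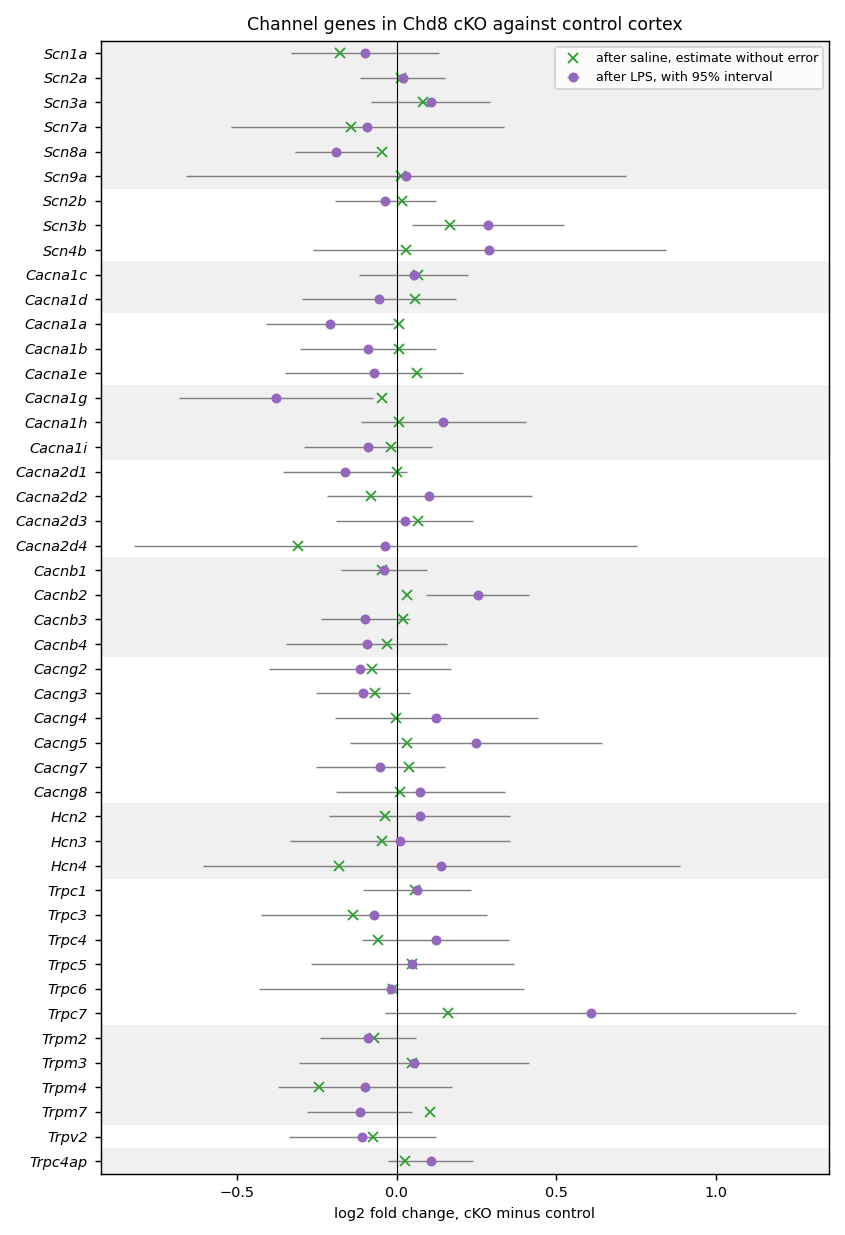
Log2 fold change, cKO minus control, for 46 of the 49 genes: circles with 95% intervals after LPS (authors' deposited table) and crosses for the estimate after saline, which has no error. Intervals of 5 genes (Cacnb2, Scn3b, Scn8a, Cacna1a and Cacna1g) leave out 0 before adjustment, and none passed the FDR threshold.

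Scn4b stood at 0.29 ± 0.24 after LPS (95% interval -0.26 to 0.84, FDR = 0.651) in the authors' deposited table. All 9 striatal markers lay above 0 in that comparison without a call (median 0.63), and their summed level was 468 and 420 CPM in control saline and LPS and 513 and 606 CPM in the cKO groups. Immediate early genes, which follow neuronal activity, lay below 0 in 8 of 8, also without a call (median -0.89). Their sums were 820 CPM in control LPS and 455 CPM in cKO LPS. The part of these markers in the channel values was not tested.

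Whether cKO mice responded to LPS more or less than controls was tested for each gene over all genes. This difference went together with Y-linked expression, as given above for Ddx3y, and the 2 cannot be separated here. The response differed (cKO minus control) for 0 of 49 channel genes, beside 0.00725% of all genes. An unadjusted p below 0.05 was found for 2 of 49, or 4.08%, against 6.52% of all genes. Cacnb2 had a difference of 0.22 ± 0.10 (adjusted p = 0.699) and Cacna1g of -0.33 ± 0.16 (adjusted p = 0.752). Calls of Hcn2, Trpc1, Cacna2d1 and Cacna2d3 in 1 genotype therefore do not show that the genotypes responded differently. Across the 49 genes the fold changes of LPS in controls and in cKO mice, which share no library, had a Pearson r of 0.77 and a Spearman rho of 0.67; over all genes the values were 0.68 and 0.63. These are descriptions across genes, which are not independent replicates.

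After saline, the difference between cKO and control mice was estimated from the 3 fold changes without a test. Its median over the 49 genes was 0.01, and it ranged from -0.31 for Cacna2d4 to 0.17 for Scn3b, with 26 genes above 0 and 23 below. The largest negative values besides Cacna2d4 belonged to Trpm4 (-0.24), Hcn4 (-0.18) and Scn1a (-0.18).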

How the data were processed

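RNA of whole cortex was sequenced from ribodepleted, stranded libraries of 18 mice in 4 groups, per the labels' protocols; the groups follow the genotype label. The submitters' processing notes name cutadapt 3.5, STAR, RSEM, edgeR 3.30.3 and GRCm39, without their order or settings. Used here were 3 tables of the authors' comparisons, each with 13784 genes (757 without a symbol): log2 fold change, mean log2 CPM, a quasi-likelihood F score, p-value and FDR, per the file headers. No values per library were used, so depth and the spread between mice are unknown, and nothing says whether same-group samples share a litter. No header gives a direction. Fold changes were read as LPS minus saline and cKO minus control, because with these signs the LPS levels back-calculated from separate tables differed least over genes (SD 0.0537 for control LPS and 0.0503 for cKO LPS, where other signs gave an SD of at least 0.226 in at least 1 group).

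A derived SE is the absolute fold change over the root of F. The FDR recomputed by the Benjamini-Hochberg method matched the deposited one. The difference of the LPS responses was tested over all genes with SEs from the normal quantile of each deposited p. The same test was run on simulated data. The share of simulated differences that it recovered is not given here, so its power is not stated. The saline estimate is the genotype difference after LPS minus the response of cKO mice plus that of controls. Trends on GC content and length used the longest GENCODE M21 transcript (13730 genes, 99.6%). Levels per kilobase used the same transcripts. Python 3.11.15, numpy 2.4.6, pandas 2.3.3, scipy 1.17.1 and matplotlib 3.10.9 were used.

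The genes and all lists were chosen with earlier results of these data known. Named are genes called in any comparison, the 5 highest and 5 lowest in each, the most abundant of each subfamily, a few chosen for their role (Scn1a, Scn2a, Scn3a, Scn8a, Cacna1c, Cacna1a, Hcn2 and Trpm3), and up to 3 called genes of each list of partners. Cacna2d2, Cacng5, Cacng7, Cacng8, Hcn3, Scn7a, Scn9a, Trpm2, Trpm4 and the single markers lie outside this rule and were added after their values were seen. Single results of a few genes are not reported here, but counts and medians include them. Alternatives were other FDR thresholds, a CPM filter, centring, the GC and length trend, a minimum fold of 1.2 and another SE for the difference test.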

Additional observations from a re-analysis of the deposited data

How the results depend on the processing

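The counts of called channel genes depended on the threshold. In controls 9 were called at an FDR of 0.10 (3 higher, 6 lower) and 0 at 0.01. In cKO mice 14 were called at 0.10 (4 higher, 10 lower), 1 at 0.01 and 5 with a minimum fold of 1.2. The shares of all genes under these alternatives are not given here, so these counts are no result about channels as a group. The median estimate after saline was 0.0061, and -0.0085 from back-calculated levels. The other alternatives kept the total counts within 1.5 times. The split in controls, 2 higher and 2 lower, became 1 and 3 on removing the trend of GC and length. It was 2 and 1 with centring or a minimum fold of 1.2. The genotype comparison and the difference of responses held 0 calls under each alternative run. With the GC and length trend removed, 6 named values lost and 7 gained a call; the cause was not tested. No called value turned sign, and 14 of 558 values under the alternatives turned sign while not called. No paired analysis was possible because only tables of the authors' comparisons, with no values per library, were used; leaving out single replicates was not run for the same reason.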
